A study of Mus musculus with 12 samples.

Results

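The loss of the ubiquitin ligase Cbl was examined by setting 3 libraries of Cbl-/- mouse bone-marrow-derived macrophages against 3 libraries of wild type (WT) macrophages, 6 of the 12 libraries in the series. The comparison was defined by the genotype labels and was chosen with earlier results of these data known. It covers the genes of the deposited table, which all have at least 1 count in library WT 1. Of these 15555 genes 12671 had enough counts to be tested. All cells were grown from marrow in medium with the supernatant of L cells, a fibroblast line that secretes the growth factor CSF-1, and adherent cells were taken at day 9. The labels name no stimulus. The other 6 libraries, 3 labelled Cbl-b-/- and 3 labelled DKO (both ligases missing), were used here where a second measurement of the loss of Cbl was needed. The labels give no strain, allele or sex, and nothing says that the replicates came from separate animals. The protocol also mentions pooling of RNA at equal concentrations without saying what was pooled with what. The p-values therefore measure only library-to-library spread, part of which may be technical. In the main fit that spread was estimated over all 12 libraries together, although it differed between genotypes. As a coefficient of variation beyond counting error it was 5.4% in WT, 4.2% in Cbl-/-, 7.9% in labelled Cbl-b-/- and 11.9% in labelled DKO. The part of this difference in the numbers of genes called was not tested. Total counts were 27822954 to 42007454 per WT library and 23892790 to 35129318 per Cbl-/- library, and levels are given as CPM, read counts scaled to a common library size and composition.

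Cbl attaches ubiquitin to activated receptor and non-receptor tyrosine kinases, which marks them for uptake and breakdown. In macrophages its best known target is the CSF-1 receptor, the receptor through which L-cell medium keeps these cells alive and dividing. Cbl also binds Src-family kinases, the adaptor proteins CIN85 (gene Sh3kbp1) and CD2AP, and the phosphatase-like proteins of the Ubash3 family. Its relative Cbl-b shares the catalytic region and many of the targets.

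The Cbl transcript itself (ENSMUSG00000034342, chromosome 9, 44142976 to 44234049, minus strand, GRCm38) was measured at 141, 143 and 136 CPM in the 3 WT libraries and at 54, 51.2 and 49.3 CPM in the 3 Cbl-/- libraries. The groups did not overlap, with -1.44 (SE 0.06, adjusted p = 7.4e-11) as the log2 fold change, so reads from the locus fell but did not disappear. Cblb had 62.2, 55.5 and 60.6 CPM in WT and 67.9, 68.2 and 69.2 CPM in Cbl-/-, with a log2 change of 0.20. That call (adjusted p = 0.048) was lost when any 1 of the 6 libraries was left out, with log2 fold changes of 0.16 to 0.24. In the libraries labelled Cbl-b-/- and DKO Cblb stayed near the WT level (54.5, 54.4 and 49.4 and 73.4, 68 and 73.7 CPM), so those groups are called by their labels throughout.

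Macrophage markers were abundant in both genotypes, though not all at the same level. Over all genes tested 5.68% were higher and 4.19% lower in Cbl-/-, which is the background for the counts here. Of 32 tested macrophage identity genes 7 were higher and 8 lower (46.9% called, against 9.87% of all genes). Their summed level was 40100 to 41300 CPM in Cbl-/- against 47700 to 50800 CPM in WT. Without Cbl-/- 1, Cbl-/- 3, WT 1 or WT 2 the number lower was 4 or 5, and without Cbl-/- 3 the number higher was 4. The CSF-1 receptor gene Csf1r had 2283, 2295 and 2041 CPM in WT and 2175, 2164 and 2239.6 CPM in Cbl-/-, with overlapping ranges and a log2 change of -0.01 (SE 0.06, adjusted p = 0.96). The integrin gene Itgam (719.9, 740.3 and 655 against 739, 749 and 754 CPM) and the lysosomal membrane protein gene Cd68 (1306, 1225 and 1272 against 1060.0, 1069 and 1139 CPM) did not pass the threshold either, although all Cbl-/- libraries lay below all WT libraries for Cd68. Among other blood cells, 4 of 11 tested granulocyte genes were higher in Cbl-/- and 0 lower, with summed levels of 59.2 to 60.8 CPM against 42.8 to 50.8 CPM in WT. Of 12 tested monocyte genes 2 were higher (Vcan and Ccr2; only 1 when any library but Cbl-/- 1 was left out), and their summed level was 100 to 109 CPM against 73.6 to 79.2 CPM. The defining granulocyte genes S100a9 (0.785, 0.616 and 0.75 against 1.37, 1.82 and 1.01 CPM) and Ngp (0.809, 0.513 and 0.393 against 1.46, 1.36 and 1.23 CPM) were both among the 4 and stayed under 2 CPM, and the S100a9 call was lost in 8 of the alternatives, 5 of them leaving out 1 library. Of 11 erythroid genes 9 were absent from the table, of 8 natural killer cell genes 5, and of 21 granulocyte genes 9. The remaining erythroid and natural killer cell genes did not pass the filter on low counts. The table holds only genes with a read in WT 1, so the absent genes could not be seen in Cbl-/-. The part of these small differences in the results was not tested, and in bulk RNA fewer cells of a type and less RNA per cell cannot be told apart.

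Of 6 tested genes on the Y chromosome 4 were lower in Cbl-/- and 0 higher. The summed level of these 4 was 122 to 125 CPM in Cbl-/- and 192 to 198 CPM in WT. Their log2 fold changes were -0.53 for Ddx3y, -0.75 for Kdm5d, -0.77 for Uty and -0.78 for Eif2s3y. The labels give no sex for the marrow donors, and the part of this difference in the other results was not tested.

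In all, 1251 of 12671 genes (9.87%) passed the threshold in this comparison, of which 720 were higher in Cbl-/- (5.68%) and 531 were lower (4.19%). These shares are the background for the list counts of Cbl-/- against WT below. Every adjusted p given here comes from edgeR's quasi-likelihood test with Benjamini-Hochberg adjustment over all 12671 genes, with a threshold of 0.05. Of the 1251 called genes 1245 had groups that did not overlap. Most called genes named in this report were picked by a rule that required this. Separate groups therefore describe those genes and add no support to their calls. Most changes were small, with a median log2 fold change of 0.40 among the genes that rose and -0.42 among those that fell. Changes under 1.5-fold made up 66.8% of the increases and 68.0% of the decreases. At least 2-fold changes were called for 124 genes that rose (0.979%) and 83 that fell (0.655%), and at least 4-fold changes for 32 and 36. The number called was 733, 801, 799, 803 and 784 without the libraries WT 1, WT 2, Cbl-/- 1, Cbl-/- 2 and Cbl-/- 3. It was 2206 without the library DKO 3, and the cause was not tested.

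**Figure D1:**
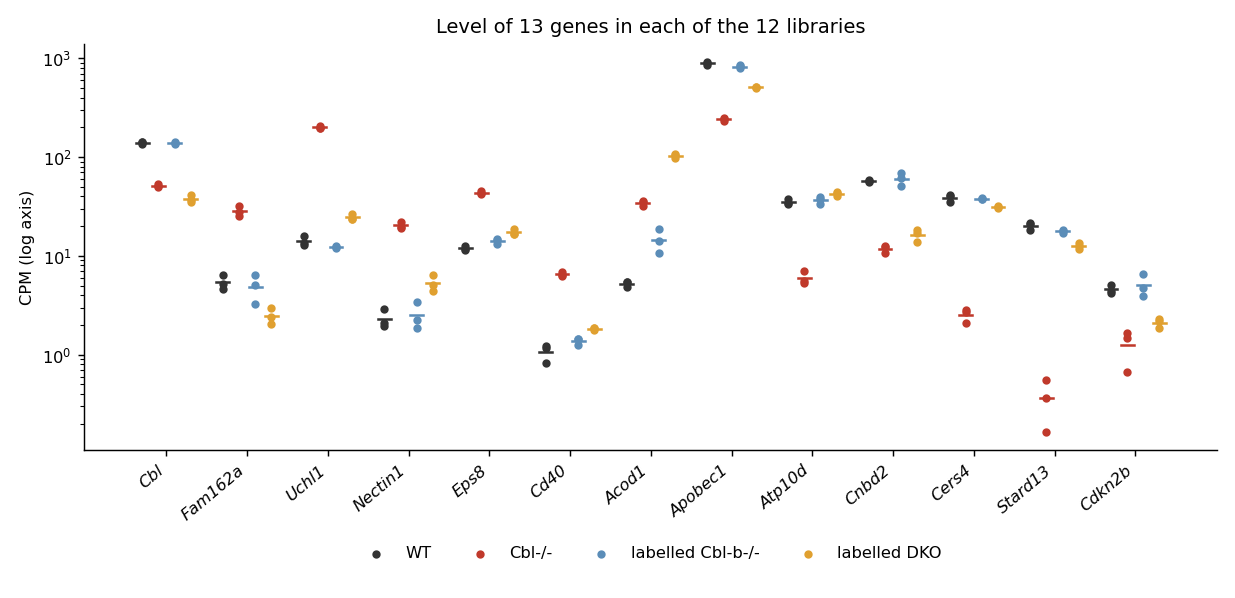
Level in CPM (log axis) of 13 genes in all 12 libraries, with 1 point per library and a bar at the mean of each genotype. Uchl1 reached 196 to 207 CPM in Cbl-/- and 12.9 to 16.0 CPM in WT, while Stard13 lay between 0.165 and 0.553 CPM in Cbl-/- and between 18.4 and 21.3 CPM in WT.

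Of 28 tested genes of CSF-1 and tyrosine kinase signalling, 3 were higher and 1 lower, with a median log2 fold change of -0.01 against -0.01 over all genes tested. These calls made up 14.3% of the list, against 9.87% of all genes, and with only WT and Cbl-/- in the fit 7 were higher and 3 lower. The call for Met held in every alternative tried. It is the receptor for hepatocyte growth factor and a known Cbl target, and was at 3.05, 3.46 and 3.86 CPM in WT and 8.33, 9.96 and 8.58 CPM in Cbl-/-. All 3 Cbl-/- libraries lay above all WT libraries, and the log2 fold change was 1.38 (SE 0.14, adjusted p = 4.3e-06). The other 3 calls (Kit, Vav2 and Mertk) were each lost on leaving out single libraries. Without Cbl-/- 2 only Met was higher, and of the fits that left out 1 of the 6 libraries only that without WT 3 called Mertk lower.

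Of 10 tested Src-family kinase genes and their regulators, 3 were higher and 0 lower, against 5.68% and 4.19% of all genes. The same counts held whichever WT or Cbl-/- library was left out. Src, the founding member, rose from 1.19, 1.59 and 1.5 CPM to 3.84, 4.75 and 3.98 CPM, with a log2 change of 1.55 (SE 0.19, adjusted p = 2.4e-05). Fgr, a myeloid member, had 14.7, 16 and 15.3 CPM in WT and 29.2, 28.4 and 28.9 CPM in Cbl-/-. The groups were apart for both genes, and the log2 fold change of Fgr was 0.91. Lyn and Fyn, other members of the family, had log2 fold changes of -0.06 (adjusted p = 0.63) and 0.00 (adjusted p = 0.99).

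Among the binding partners of Cbl, Ubash3b, a phosphatase that acts on tyrosine kinases, had 103, 103 and 92.5 CPM in WT and 128, 124 and 141 CPM in Cbl-/- (log2 fold change 0.39, SE 0.06, adjusted p = 2.8e-04). It lies on chromosome 9, 2.98 Mb from Cbl. Eps8, an actin-regulating substrate of receptor tyrosine kinases, is not among the partners of Cbl named above. It was among the largest increases, from 11.8, 12.6 and 11.5 to 42.6, 43 and 45.9 CPM (log2 fold change 1.87, SE 0.08, adjusted p = 7.0e-11). Of 34 tested genes of endocytosis and ESCRT receptor sorting 1 was higher (Sh3kbp1, lost without WT 3) and 0 lower, and with only the 2 genotypes in the fit 2 were higher and 1 lower. Of 17 tested genes of tyrosine phosphatases and kinase inhibitors 1 was higher (Pirb, lost on leaving out any library but Cbl-/- 3) and 0 lower, and with only the 2 genotypes in the fit 3 and 2. Socs3, the feedback inhibitor of cytokine receptors, rose from 5.52, 6.13 and 5.07 to 18.1, 18.5 and 19.5 CPM, and Cish, an inhibitor in the same family, from 5 counts in all over the WT libraries to 50 counts over the Cbl-/- libraries, a ratio of 12 after scaling (95% interval 4.82 to 38.6, counting error only).

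Genes of the NF-kB pathway were higher in Cbl-/- in a large share. NF-kB is a family of transcription factors held in the cytoplasm by inhibitors of the IkB family, and it switches on both inflammatory genes and several of its own inhibitors. Of 19 tested subunits and regulators 13 were higher and 0 lower, with a median log2 fold change of 0.51. All 3 Cbl-/- libraries lay above all 3 WT libraries for 16 of the 19, against 2404 of 12671 over all genes. Leaving out single libraries gave 9 to 11 genes higher. Among the inhibitors, Tnip1 had 75.6, 75.7 and 75.4 CPM in WT and 126, 134 and 127 CPM in Cbl-/-, Tnfaip3 (A20) 23.4, 22.3 and 28.4 and 45, 45 and 42.4 CPM, and Nfkbia (IkB alpha) 89, 84.1 and 94.8 and 144, 144 and 153 CPM. No library of one genotype overlapped the other for these 3 genes, and the log2 fold changes were 0.77 (SE 0.06, adjusted p = 3.7e-07), 0.84 (SE 0.09, adjusted p = 8.8e-06) and 0.72 (SE 0.08, adjusted p = 1.7e-05). The kinase gene Ikbke rose by 0.94, the adaptor gene Traf1 by 1.45, and the subunit gene Relb by 0.84 on the log2 scale. Nfkbia and Relb were chosen after their values were seen. The main activating subunit Rela was at 0.02 (adjusted p = 0.92) and Nfkb1 at 0.14 (adjusted p = 0.085).

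The promoters of these genes were searched for the NF-kB motif on both strands, from 250 bases before to 50 after the start (RefSeq, GRCm38.p6). A match was found for 10 of the 16 list genes with a promoter in the table, for 5 of 12 chemokine ligand genes, and for 12.2% of the 9795 tested genes with a promoter. Among MHC class I genes, of which 0 of 21 tested rose and 1 fell, it was found for 8 of 17. A match is a description of these windows and not evidence of binding. The windows of 3 genes that rose are printed because they show how the matches sit, with matches in capitals. They are Tnip1 (chr11:54962891-54963190, minus strand), Tnfaip3 (chr10:19015361-19015660, minus strand) and the chemokine gene Cxcl2 (chr5:90903649-90903948, plus strand).
Tnip1: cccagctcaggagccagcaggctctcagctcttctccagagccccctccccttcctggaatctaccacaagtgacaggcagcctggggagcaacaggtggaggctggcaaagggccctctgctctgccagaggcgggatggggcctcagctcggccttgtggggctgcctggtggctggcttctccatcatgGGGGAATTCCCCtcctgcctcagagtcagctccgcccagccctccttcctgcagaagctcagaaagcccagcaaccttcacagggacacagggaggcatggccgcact
Tnfaip3: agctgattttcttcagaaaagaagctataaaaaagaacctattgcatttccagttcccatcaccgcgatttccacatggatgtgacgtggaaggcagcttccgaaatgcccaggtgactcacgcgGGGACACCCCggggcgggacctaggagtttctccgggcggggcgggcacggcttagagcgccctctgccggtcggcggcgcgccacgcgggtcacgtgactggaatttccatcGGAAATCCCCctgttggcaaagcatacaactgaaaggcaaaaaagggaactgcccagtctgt
Cxcl2: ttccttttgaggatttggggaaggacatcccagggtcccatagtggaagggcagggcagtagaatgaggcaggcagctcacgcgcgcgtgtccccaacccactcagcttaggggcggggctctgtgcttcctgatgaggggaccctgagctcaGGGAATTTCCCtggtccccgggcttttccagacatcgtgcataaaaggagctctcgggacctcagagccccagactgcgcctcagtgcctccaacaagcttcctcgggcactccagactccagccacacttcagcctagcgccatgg
The capital runs of Tnip1 and Cxcl2 each hold overlapping matches at 1 site, and Tnfaip3 holds 2 separate matches.

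Chemokine ligands, which draw in other leukocytes, were also more often higher than lower. Of 18 tested, 8 were higher and 1 lower, with a median of 0.51. Cxcl2, a neutrophil attractant, had 8.42, 9.52 and 9.36 CPM in WT and 26.7, 29.6 and 25 CPM in Cbl-/- (log2 fold change 1.57, SE 0.12, adjusted p = 7.7e-08). Ccl2, a monocyte attractant, had 128, 153 and 129 and 206, 227 and 232 CPM. Neither pair of groups overlapped, and Ccl2 had a log2 change of 0.70 (SE 0.08, adjusted p = 2.3e-05). Cxcl14 was the 1 ligand that fell, from 90.1, 87.7 and 89.2 to 45.2, 46.1 and 43.9 CPM (log2 fold change -0.98, SE 0.06, adjusted p = 1.5e-08). The cytokine gene Tnf had 51.6, 51.9 and 54.2 CPM in WT and 92.6, 94 and 94.8 CPM in Cbl-/-, with the groups apart (log2 fold change 0.84, SE 0.08, adjusted p = 1.6e-06).

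Of 25 tested costimulation and activation surface molecules 11 were higher and 3 lower. Cd40, a costimulatory receptor of antigen-presenting cells, was at 1.21, 0.821 and 1.18 CPM in WT and 6.47, 6.28 and 6.87 CPM in Cbl-/-, and the early activation antigen Cd69 at 1.33, 1.44 and 1.07 and 4.81, 3.35 and 3.98 CPM. The adhesion molecule Icam1 rose from 82.4, 81.4 and 75 to 133, 139 and 135 CPM. All 3 genes had their groups apart, with log2 fold changes of 2.61, 1.65 and 0.77. Trem2, a lipid receptor of resident macrophages, was among the 3 that fell (log2 fold change -0.33, SE 0.06, adjusted p = 0.0026).

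Among receptors that sense microbes and their adaptors, 3 genes rose in every alternative tried. Tlr2, the receptor for bacterial lipoproteins, had 89.9, 90.1 and 86.3 CPM in WT and 220.2, 222 and 217 CPM in Cbl-/- (log2 fold change 1.31, SE 0.07, adjusted p = 1.7e-09). Nod1 (1.97, 2.36 and 1.68 against 5.27, 6.49 and 6.33 CPM) and Nod2 (5.09, 4.21 and 4.07 against 7.71, 9.17 and 8.49 CPM), intracellular sensors of peptidoglycan fragments, were higher too, by 1.58 and 0.91 on the log2 scale. Of the 30 genes of this list 6 were higher and 3 lower, and the other 6 of these 9 calls were each lost in at least 1 alternative. Without WT 1, WT 2 or Cbl-/- 3 the number higher was 3, and without WT 1 none was lower. The lipopolysaccharide receptor gene Tlr4 was at 0.03 (adjusted p = 0.90).

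The complement C5a receptors lie side by side on chromosome 7 with 2588 bases between them. C5ar1, the signalling receptor, was at 252, 297 and 207 CPM in WT and 708, 751 and 899 CPM in Cbl-/-, and C5ar2, which does not couple to G proteins, at 2.69, 2.59 and 2.93 and 23.5, 24.2 and 26.3 CPM. Both rose in all 3 Cbl-/- libraries, by 1.64 and 3.18 on the log2 scale.

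Genes of nitric oxide and the oxidative burst also held more increases than decreases, with 5 of 12 higher and 1 lower (Ncf1, lost without WT 1, WT 2, Cbl-/- 2 or Cbl-/- 3). Ass1, which regenerates arginine, had 33.5, 34.2 and 30.9 CPM in WT and 73.6, 77.1 and 71.8 CPM in Cbl-/- (log2 fold change 1.17, SE 0.11, adjusted p = 3.1e-06). The superoxide-producing subunit gene Cybb had 284, 275 and 290.0 and 418, 429.6 and 445 CPM, and the mitochondrial superoxide dismutase gene Sod2 73.4, 74.3 and 67.3 and 122, 129 and 133 CPM. These groups did not overlap either, with log2 fold changes of 0.61 and 0.84. Acod1, the enzyme that makes itaconate from an intermediate of the tricarboxylic acid cycle, was at 5.42, 5.47 and 4.79 CPM in WT and 32.1, 35.8 and 35.3 CPM in Cbl-/-, with a log2 change of 2.71 (SE 0.15, adjusted p = 8.1e-09).

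Guanylate-binding proteins and related GTPases, which interferons induce against intracellular microbes, were higher in 5 of 12 tested genes and lower in 0, with a median of 0.44. Gbp2 had 6.26, 5.82 and 7.11 CPM in WT and 9.76, 10.7 and 12.6 CPM in Cbl-/- (log2 fold change 0.79, SE 0.13, adjusted p = 6.2e-04), and Gbp7 had 5.54, 6.06 and 7.65 and 9.73, 9.71 and 12.2 CPM (log2 fold change 0.73, SE 0.13, adjusted p = 0.0012). The groups were apart for both. Without Cbl-/- 3 only 2 were higher, and without WT 1 or WT 2 only 3.

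Many cell division genes of the mitotic phase were higher, by small amounts. In cycling cells these genes peak in G2 and M phase, when chromosomes are condensed and separated, and many are held off in resting cells through a promoter element called CHR. Of 38 tested mitosis genes 29 were higher and 0 lower, with a median of 0.30. The Cbl-/- libraries lay above all WT libraries for 35 of the 38, and the summed level was 5960 to 6010 CPM against 4750 to 4860 CPM. Leaving out single libraries gave 20 to 25 genes higher.

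Ube2c, which loads ubiquitin for the anaphase-promoting complex, had 107, 111 and 116 CPM in WT and 147, 159 and 156 CPM in Cbl-/- (log2 fold change 0.47, SE 0.06, adjusted p = 4.4e-05). Mki67, the proliferation marker, had 705, 715 and 711 and 975, 946 and 908 CPM, and Cdk1, the kinase that starts mitosis, 122, 122 and 119.6 and 145, 148 and 150.2 CPM. The groups were apart for all 3, and the log2 fold changes of Mki67 and Cdk1 were 0.41 and 0.29. The spindle kinase gene Aurka (53.3, 55.7 and 55 against 68.8, 74.9 and 71.9 CPM), the mitotic cyclin gene Ccnb2 (78, 79.9 and 85.6 against 109.5, 111 and 103 CPM) and the contractile-ring gene Anln (145, 149 and 152 against 206, 197 and 201 CPM) rose by 0.39, 0.41 and 0.44 on the log2 scale. Mki67 and Cdk1 were chosen after their values were seen.

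Genes of DNA replication and S phase gave a different count. Of 36 tested 2 were higher and 2 lower, with a median of 0.15, although the Cbl-/- libraries lay above all WT libraries for 25 of them. With only WT and Cbl-/- in the fit, 20 were higher and 2 lower. The ribonucleotide reductase gene Rrm2 (175, 189 and 198 against 227, 234 and 227 CPM) and Uhrf1, which maintains DNA methylation (206, 216 and 213 against 242, 252 and 259 CPM), were higher, by 0.29 and 0.25 on the log2 scale. The thymidylate synthase gene Tyms (67, 65.5 and 67.3 against 54.5, 52.5 and 53.2 CPM) and the clamp-loader subunit gene Rfc3 (38.7, 39.5 and 40.4 against 29.4, 29.2 and 31.9 CPM) were lower, by log2 fold changes of -0.32 and -0.39.

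The CHR element, searched as TTTGAA on both strands of the same windows, was found in 24 of 32 mitosis genes with a promoter in the table and in 4 of 30 S-phase genes, against 14.7% of the 9795 tested genes. CHR matches also occurred in 4 of 8 genes of guanylate-binding proteins and related GTPases. They occurred in 8 of 19 genes of paired and leukocyte Ig-like receptors and 6 of 15 of the BCL2 family. CCAAT, the box that often stands beside CHR, was found in 24 of 32 mitosis genes, 19 of 30 S-phase genes and 43.1% of all. Other lists also held it often, with 21 of 28 genes of the unfolded protein response and 16 of 17 of cholesterol synthesis. A match again describes the window alone, and matches on the 2 strands may overlap. The windows of 3 mitosis genes that rose are shown because both motifs occur in each, with both in capitals on either strand (TTTGAA reads TTCAAA and CCAAT reads ATTGG from the other strand). They are Ube2c (chr2:164769679-164769978, plus strand), Ccnb2 (chr9:70421505-70421804, minus strand) and Aurka (chr2:172370521-172370820, minus strand).
Ube2c: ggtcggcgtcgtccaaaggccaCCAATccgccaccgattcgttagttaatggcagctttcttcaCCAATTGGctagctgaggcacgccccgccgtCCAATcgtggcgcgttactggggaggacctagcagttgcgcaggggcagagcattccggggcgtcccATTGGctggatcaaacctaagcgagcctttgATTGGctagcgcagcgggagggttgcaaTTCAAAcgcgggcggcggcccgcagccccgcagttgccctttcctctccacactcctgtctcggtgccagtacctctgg
Ccnb2: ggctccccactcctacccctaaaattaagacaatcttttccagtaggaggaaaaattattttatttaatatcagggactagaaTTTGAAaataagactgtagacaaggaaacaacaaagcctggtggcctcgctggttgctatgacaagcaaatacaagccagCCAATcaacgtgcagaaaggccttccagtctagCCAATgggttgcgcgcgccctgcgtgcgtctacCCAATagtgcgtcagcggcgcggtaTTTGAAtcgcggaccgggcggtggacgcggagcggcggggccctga
Aurka: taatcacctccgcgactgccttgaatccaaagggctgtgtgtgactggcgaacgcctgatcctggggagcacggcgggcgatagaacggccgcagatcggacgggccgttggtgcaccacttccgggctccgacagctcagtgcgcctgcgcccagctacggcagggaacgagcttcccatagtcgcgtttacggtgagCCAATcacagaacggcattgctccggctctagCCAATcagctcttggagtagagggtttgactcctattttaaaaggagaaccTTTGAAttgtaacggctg
In each window a CHR match follows the CCAAT matches, and Ccnb2 has another before them.

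**Figure D2:**
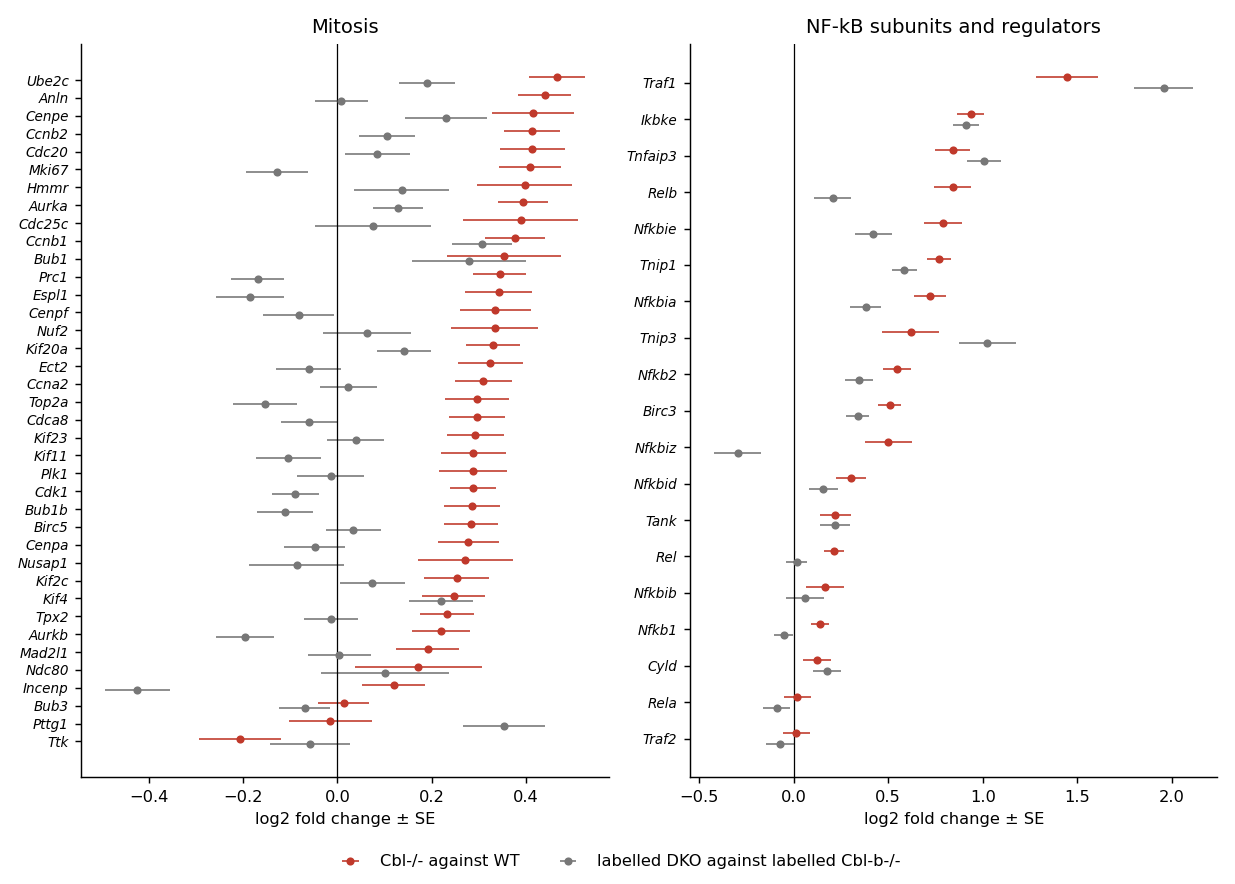
Log2 fold change ± SE of the 38 mitosis genes and 19 NF-kB genes, for Cbl-/- against WT (red) and for labelled DKO against labelled Cbl-b-/- (grey). In the mitosis panel 36 of 38 red points lie above 0 and the grey points scatter around 0 with a median of 0.01, while in the NF-kB panel most points of both colours lie above 0.

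Among inhibitors of the cell cycle, the genes of 1 locus on chromosome 4 fell. Cdkn2b (p15), an inhibitor of the G1 kinases CDK4 and CDK6, had 4.43, 5.08 and 4.22 CPM in WT and 1.66, 0.661 and 1.46 CPM in Cbl-/- (log2 fold change -1.83, SE 0.26, adjusted p = 1.5e-04). Its neighbour Cdkn2a, 11645 bases away, which encodes p16 and p19, had 5.59, 5.62 and 6 and 4.13, 2.64 and 2.94 CPM (log2 fold change -0.82, SE 0.17, adjusted p = 0.0046). Cdk6 itself rose, from 197, 192 and 211 to 257, 273 and 269 CPM. All 3 pairs of groups were apart. The inhibitor genes Cdkn1a (p21) and Cdkn1b (p27) were at 0.07 and -0.03 (adjusted p = 0.61 and 0.84). Over the 27 genes of this list 4 were higher and 4 lower. Without Cbl-/- 1, Cbl-/- 3, WT 1 or WT 2 the number higher was 1, and without Cbl-/- 2 or WT 3 it was 2. Without Cbl-/- 1, Cbl-/- 2 or WT 2 the number lower was 2.

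Some MHC class II genes, which present antigen to helper T cells, were lower. Of 12 tested 5 fell and 0 rose, with a median of -0.31, and 4 or 5 were lower on leaving out 1 library. The chain genes H2-Eb1 (22.4, 22.7 and 22.8 CPM in WT, 10.2, 11.8 and 10.9 CPM in Cbl-/-) and H2-Aa (35, 37.1 and 33.3 against 18, 20 and 20.7 CPM) fell the most. Cd74, the invariant chain, the most abundant of the 5, had 154, 156 and 151 and 96.9, 102 and 100.4 CPM. The groups did not overlap for any of these, and the log2 fold changes were -1.05, -0.84 and -0.62. The summed level of the list did not fall (2720 to 2830 CPM in Cbl-/- against 2590 to 2810 CPM in WT), because most of it came from the protease gene Ctss, at 2407, 2175 and 2283 CPM in WT and 2540.3, 2484 and 2429 CPM in Cbl-/- (0.12, adjusted p = 0.36). Ciita, the coactivator that controls these genes, had 0.69, 0.847 and 1 CPM in WT and 0.813, 0.661 and 0.533 CPM in Cbl-/- and did not pass (-0.33, adjusted p = 0.70). Of 21 tested MHC class I genes 0 rose and 1 fell.

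Among genes typical of resident macrophages such as microglia there were also decreases, with 5 of 9 tested lower and 0 higher. Cx3cr1, the receptor for fractalkine, had 734, 688 and 655 CPM in WT and 498, 492 and 508 CPM in Cbl-/- (log2 fold change -0.47, SE 0.06, adjusted p = 2.4e-05). The groups did not overlap. P2ry12, a defining microglial receptor, was at 5.85, 6.44 and 4.75 CPM in WT and 6.67, 5.83 and 5.61 CPM in Cbl-/- and did not pass.

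Several of the most abundant transcripts were lower. Ctsd, the lysosomal protease cathepsin D, lost the most CPM of any called gene, from 11359, 10848 and 10531 CPM in WT to 7206, 7341 and 6967 CPM in Cbl-/- (log2 fold change -0.61, SE 0.06, adjusted p = 2.5e-06). Plau, the urokinase-type plasminogen activator, fell from 974, 884 and 1147 to 541, 523 and 557 CPM, and Hmox1, which breaks down haem, from 1599, 1557 and 1386 to 1122, 1123 and 1051 CPM. No Cbl-/- library reached the lowest WT library for any of the 3. Lyz2, Fth1, Ctsb, Spp1 and Pkm were named by the same rule on CPM, with log2 fold changes of -0.34, -0.30, -0.26, -0.36 and -0.23. Each of those 5 calls was lost when certain of the 6 libraries were left out 1 at a time, with edgeR adjusted p up to 0.178 over all alternatives. Across 44 lysosomal genes 6 were higher and 7 lower (17 lower with only the 2 genotypes in the fit), and without WT 1 the counts were 3 higher and 5 lower. Ctsh, cathepsin H, moved the other way, from 73.2, 69.2 and 69.4 to 126, 116 and 116 CPM.

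Apobec1, the cytidine deaminase that edits the apolipoprotein B transcript and, in macrophages, the 3′ ends of other messages, had 909.7, 851 and 907 CPM in WT and 247, 245 and 233 CPM in Cbl-/-. The 2 groups were far apart, with a log2 change of -1.88 (SE 0.05, adjusted p = 1.9e-13). Hpgd, which inactivates prostaglandins, fell from 64.8, 62.8 and 65.4 to 19.2, 19 and 17.4 CPM, and Cd36, the scavenger receptor for oxidised lipoproteins, rose from 291, 259 and 302 to 565, 548 and 518 CPM. Their log2 fold changes were -1.80 and 0.94, with no overlap of the groups.

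**Figure D3:**
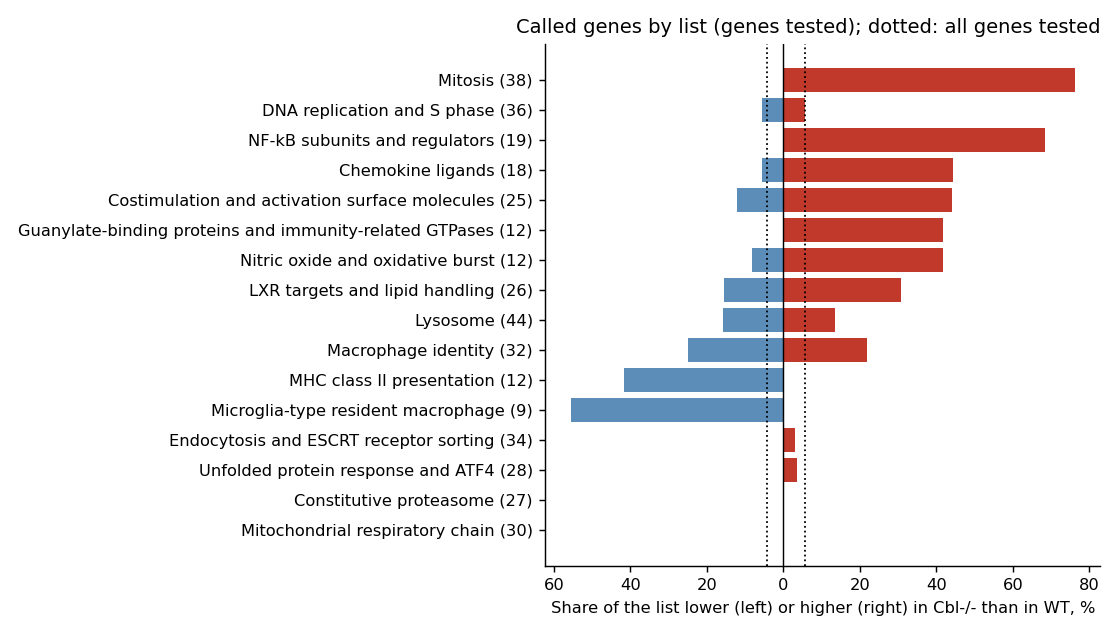
Bars give the percent of tested genes in each list lower (blue, left) or higher (red, right) in Cbl-/- than in WT. The lists drawn are a selection from 65. Dotted lines mark the shares over all genes, 4.19% lower and 5.68% higher. Among the lists drawn, mitosis (76.3%) and NF-kB (68.4%) reach furthest right. Of the same lists, microglia-type (55.6%) and MHC class II (41.7%) genes reach furthest left. The respiratory chain and proteasome lists hold no called gene. The list of 4 Y-linked genes, all lower, is not drawn.

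Several large cellular programmes were examined as well. Of 30 tested genes of the mitochondrial respiratory chain and of 27 of the constitutive proteasome 0 were called, and with only the 2 genotypes in the fit 1 in each. Of 28 genes of the unfolded protein response 1 was higher (Edem1, lost on leaving out any 1 of the 6 libraries) and 0 lower, but with only the 2 genotypes in the fit 7 were higher and 4 lower. The respiratory chain had a summed level of 4010 to 4020 CPM in Cbl-/- and 3920 to 4040 CPM in WT. Cholesterol synthesis (24 tested) had 1 gene higher and 1 lower (Insig1, lost without WT 2, Cbl-/- 2 or Cbl-/- 3), and 9 higher and 2 lower with only the 2 genotypes in the fit. A gene that misses the threshold may still differ.

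The largest changes were in single genes of varied function. Uchl1, a ubiquitin hydrolase abundant in neurons, had 13.4, 12.9 and 16 CPM in WT, 196, 198 and 207 in Cbl-/- and 23.4, 26.7 and 23.7 in labelled DKO. Every Cbl-/- library lay far above every WT library, with a log2 change of 3.84 (SE 0.08, adjusted p = 8.5e-15). Neo1, a receptor for netrins and repulsive guidance molecules, rose from 3.47, 4.18 and 3.18 to 30.3, 30.4 and 31.2 CPM, and Igf2bp3, an RNA-binding protein of fetal tissues, from 1.33, 1.64 and 1.54 to 11.8, 9.42 and 8.18 CPM. The noncoding transcript of the Rosa26 locus, Gt(ROSA)26Sor, was at 0.238, 0.231 and 0.107 CPM in WT and 6.77, 5.83 and 5.49 CPM in Cbl-/-. The groups were apart for these 3 genes, with log2 fold changes of 3.07, 2.70 and 4.89.

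Decreases of similar size were found too. Stard13, a protein with a START lipid-binding domain, had 20.9, 21.3 and 18.4 CPM in WT and 0.553, 0.165 and 0.364 CPM in Cbl-/- (log2 fold change -5.74, SE 0.18, adjusted p = 1.7e-12). Cers4, a ceramide synthase, fell from 40.6, 40.9 and 35.4 to 2.11, 2.73 and 2.8 CPM, and Atp10d, a glucosylceramide flippase, from 33.7, 37.3 and 34.4 to 5.3, 5.58 and 7.04 CPM. None of these groups came near each other, and the log2 fold changes of Cers4 and Atp10d were -3.93 and -2.54. Elavl4, an RNA-binding protein of neurons, had 325 counts over the WT libraries and 3 over the Cbl-/- libraries, a ratio of 90.1 after scaling (95% interval 30.6 to 439, counting error only).

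Some of the largest changes fell on neighbouring or near-identical genes. Ccdc58 (chromosome 16, 36071685 to 36092120, plus strand) had 2, 0 and 0 counts in WT, 354, 267 and 452 in Cbl-/-, 0 in every labelled Cbl-b-/- library and 1, 0 and 0 in labelled DKO. The ratio of Cbl-/- to WT after scaling was 645 (95% interval 178 to 5330, counting error only). Fam162a, a mitochondrial protein gene induced by low oxygen, starts 91 bases away on the opposite strand and had 4.66, 5.23 and 6.4 CPM in WT and 28, 32.1 and 25.5 CPM in Cbl-/- (log2 fold change 2.40, SE 0.18, adjusted p = 1.3e-07). In labelled DKO it had 2.42, 2.07 and 2.96 CPM, below every WT library. The RefSeq window of Fam162a (chr16:36071512-36071811, minus strand, GRCm38.p6) spans both starts and is printed to show how close they lie, with the annotated start of Ccdc58 (base 127) and then of Fam162a (base 218) in capitals.
Fam162a: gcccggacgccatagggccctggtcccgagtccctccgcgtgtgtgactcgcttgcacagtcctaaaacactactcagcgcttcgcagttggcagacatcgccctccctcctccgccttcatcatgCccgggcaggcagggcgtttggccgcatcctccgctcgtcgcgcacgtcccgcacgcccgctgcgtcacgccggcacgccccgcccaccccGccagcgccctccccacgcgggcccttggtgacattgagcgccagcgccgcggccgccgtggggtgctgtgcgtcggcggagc
How reads at such overlaps were assigned is not stated in the labels.

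Hmga1b on chromosome 11 is a near-identical copy of Hmga1 on chromosome 17, which encodes an architectural chromatin protein. Hmga1b had 236, 217 and 274 CPM in WT and 3.45, 1.4 and 1.49 CPM in Cbl-/-, while Hmga1 had 154, 144 and 187 and 408, 404 and 409 CPM. Their sum was 404 ± 51.2 CPM in WT and 409 ± 3.21 CPM in Cbl-/- (SD, n = 3), so the sums lay within the spread of WT while the 2 genes moved in opposite directions. The labels do not state how reads that map to both copies were counted, and both values are uncertain. Bcl2a1d (-2.30) and Bcl2a1b (1.76), close copies of an anti-apoptotic gene, moved in opposite directions and are uncertain for the same reason. The sum of Bcl2a1a, Bcl2a1b and Bcl2a1d, unlike that of the Hmga1 pair, was higher in Cbl-/-, at 21.1, 20.5 and 22 CPM against 10.2, 11.1 and 11.1 CPM in WT. Ifi44l, an interferon-induced gene, had 1155 counts over WT and 6 over Cbl-/-, 160 times fewer after scaling (95% interval 73.3 to 437, counting error only). Its neighbour Ifi44, 8776 bases away, fell from 35.5, 33.8 and 46.1 to 2.96, 3.02 and 4.76 CPM, and the groups were far apart (log2 fold change -3.39, SE 0.19, adjusted p = 5.2e-08). Of 37 tested genes of the type I interferon response 6 were higher and 2 lower, against 5.68% and 4.19% of all genes. The median log2 fold change of that list was 0.24, with 34 of the 37 above 0. Leaving out single libraries gave 3 to 9 genes higher.

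A larger share of genes was called near Cbl than elsewhere. Within 10 Mb on either side of Cbl on chromosome 9, 28 of 119 tested genes (23.5%) were called, against 64 of 581 (11.0%) on the rest of that chromosome and 1158 of 11970 (9.67%) on other chromosomes. The share was 22.7% within 5 Mb and 18.4% within 20 Mb. On the lower-coordinate side 8 genes were higher and 4 lower of 42, and on the other side 2 were higher and 14 lower of 77. The part of DNA flanking the targeted allele in these counts was not tested.

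The nearest tested gene, Mcam, ends 0.000249 Mb from Cbl and was chosen after its values were seen. It encodes a cell adhesion molecule and had 1.12, 0.821 and 0.679 CPM in WT and 0.0651, 0.248 and 0.14 CPM in Cbl-/- (log2 fold change -2.57, SE 0.50, adjusted p = 0.0026), and it lies on the strand opposite to Cbl. Nectin1, an adhesion molecule 0.336 Mb away, rose from 1.95, 2.08 and 2.89 to 19.3, 21.9 and 19.8 CPM (log2 fold change 3.16, SE 0.19, adjusted p = 8.7e-09). Hspa8, the constitutive heat shock cognate chaperone, rose from 1417, 1383 and 1434 to 2159.8, 2127 and 2145 CPM, and Cadm1, an adhesion molecule, fell from 909, 861 and 974 to 509, 519 and 573 CPM. These groups did not overlap, with log2 fold changes of 0.60 and -0.78. The pseudogene Nxpe1-ps, 4.18 Mb away, went from 58 counts over WT to 2500 over Cbl-/-, a ratio of 51.8 (95% interval 40 to 68.5, counting error only).

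**Figure D4:**
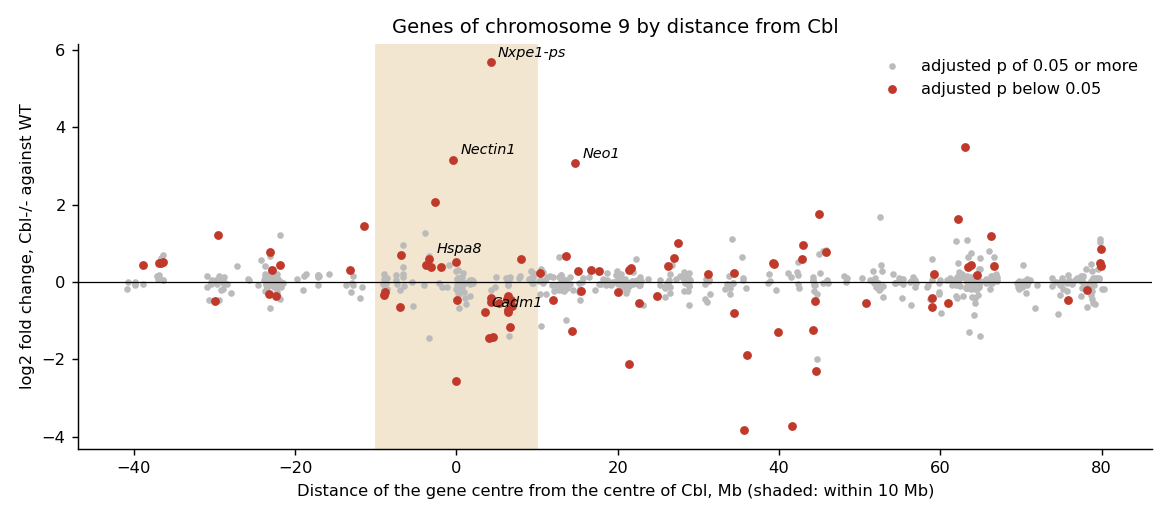
Log2 fold change of Cbl-/- against WT for the tested genes of chromosome 9 by distance between gene centre and Cbl centre in Mb, with called genes in red and the 10 Mb on each side shaded. The shaded part holds 28 called genes of 119, mostly above 0 on the lower-coordinate side and mostly below 0 on the other side.

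A second measurement of the loss of Cbl came from labelled DKO against labelled Cbl-b-/-, which uses 6 libraries that Cbl-/- against WT does not. Cbl had 143, 137 and 138 CPM in labelled Cbl-b-/- and 41, 36.8 and 35 CPM in labelled DKO. In that comparison 2237 genes were higher (17.7%) and 1974 lower (15.6%), and the split was 1543 and 3207 when libraries were scaled by total counts. Of the 720 genes higher in Cbl-/-, 375 (52.1%) were higher there too and 64 (8.89%) lower, and the 375 made up 16.8% of the 2237. Of the 531 lower in Cbl-/-, 255 (48.0%) were lower too and 60 (11.3%) higher, and the 255 made up 12.9% of the 1974. Under total-count scaling the shares in the same direction were 41.1% and 57.6%. The shares of 52.1% and 48.0% rest on the 4211 genes called in the main fit. With only labelled DKO and labelled Cbl-b-/- in the fit 2760 genes were called, and no share is given for that fit.

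The difference between the 2 effects was tested directly and called for 1985 genes (15.7%). It was called for 292 of the 720 genes (40.6%) and 255 of the 531 (48.0%). Those genes were chosen by the first effect, which enters the difference with its sign reversed. Their shares are therefore not independent of the choice and are not comparable with the 15.7%. Among the 207 genes changed at least 2-fold in Cbl-/-, 110 were called in the same direction in the second comparison, 26 in the opposite direction and 71 not at all. Over all genes that comparison called 17.7% higher and 15.6% lower. The difference between the 2 effects was called for 108 of the 207, with the same limit from their choice.

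Genes that moved alike in both included Acod1, at 10.7, 18.7 and 14.2 CPM in labelled Cbl-b-/- and 97.3, 105 and 107 in labelled DKO (log2 fold change 2.83, SE 0.14, adjusted p = 8.5e-10). The difference between its 2 effects was 0.12 (SE 0.20, adjusted p = 0.74). Cnbd2, a gene with a cyclic nucleotide-binding domain, fell in both, from 59.2, 57.7 and 55.8 to 12.6, 12.3 and 10.7 CPM in the first and from 62, 68.8 and 51.1 to 17, 14 and 18.4 CPM in the second. Ikbke, Cd36 and Hpgd had log2 fold changes of 0.91, 0.96 and -2.03 in the second comparison, all called, and the adhesion gene Nectin3 -1.93 and -1.52 in the 2. In none of these 6 genes was a difference between the 2 effects called, which does not show that the effects were equal.

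Others moved in 1 comparison or in opposite directions. C5ar2 had 15.3, 15.5 and 18.1 CPM in labelled Cbl-b-/- and 1, 0.859 and 1.31 in labelled DKO, so it fell there, by a log2 change of -3.92 (SE 0.14, adjusted p = 7.4e-12) after rising in Cbl-/-. The difference between the 2 effects was -7.09 (SE 0.19, adjusted p = 3.1e-13). H2-Eb1 rose in the second comparison, from 16.9, 18.7 and 16.1 to 28, 35.4 and 29.6 CPM, after falling in the first, and 6 of the 12 MHC class II genes were higher there and 0 lower. Atp10d was at 33.4, 37.5 and 39.6 and 43.1, 44.1 and 40.5 CPM there, and its log2 fold change of 0.21 did not pass (adjusted p = 0.077).

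The lists are given with the 15.7% of all genes whose 2 effects differed as background. In the second comparison 4 mitosis genes were higher and 3 lower of 38, with a median of 0.01, and the difference between the effects was called for 20 of the 38, all with the smaller value in labelled DKO. Under total-count scaling these counts were 2 higher, 10 lower and 28 with a difference. Of the 19 NF-kB genes 10 were higher and 0 lower there, with a median of 0.22 and a difference called for 2 (9 higher and 2 lower, with a difference for 8, under total counts). Of the 18 chemokine ligands 13 were higher and 3 lower, with a median of 1.09. A difference was called with the larger value in labelled DKO for 7 of them and with the smaller for 4. Total counts gave the same counts for this list. Beside these values, 9 of 12 monocyte genes and 9 of 11 granulocyte genes were higher in labelled DKO than in labelled Cbl-b-/-, with medians of 1.98 and 3.83, and their part in the second comparison was not tested.

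**Figure D5:**
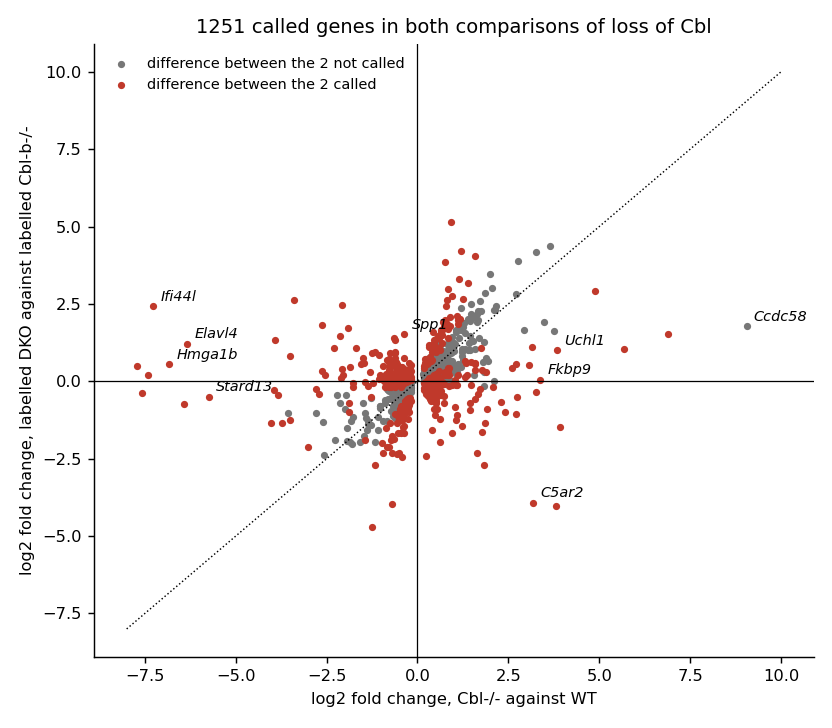
Log2 fold change of the 1251 called genes in Cbl-/- against WT (horizontal) and in labelled DKO against labelled Cbl-b-/- (vertical), with the dotted line marking equal values and red marking genes with a called difference between the 2. Many points lie along the line at upper right, while Stard13 and Hmga1b lie at -0.50 and 0.55 on the vertical axis and C5ar2 at -3.92.

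Set directly against labelled Cbl-b-/-, Cbl-/- differed in 934 genes (7.37%). The count was 533, 550 and 558 without Cbl-/- 1, Cbl-/- 2 and Cbl-/- 3. This comparison shares the Cbl-/- libraries with that against WT, so no overlap is given. Uchl1 had 12.1, 12.5 and 12.3 CPM in labelled Cbl-b-/- (log2 fold change 4.03, SE 0.08, adjusted p = 6.0e-15) and Apobec1 847, 835 and 801 CPM (-1.78, SE 0.05, adjusted p = 4.6e-13). For Mki67 the value was 0.37 (SE 0.07, adjusted p = 0.0016), and for Tnip1 0.49 (SE 0.06, adjusted p = 1.2e-04).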

How the data were processed

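Poly(A) RNA libraries (TruSeq stranded mRNA, per the labels' protocols) were sequenced from 12 macrophage samples of 4 genotypes. The authors deposited 1 table of raw read counts per gene, and the submitters' processing notes name the build GRCm38.p5. The aligner, the counter and its use of strand, and the treatment of reads shared by near-identical or overlapping genes were not given in the sources used here. Every gene in the table has at least 1 count in WT 1, so genes without a read in that library were not analysed here.

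Counts were analysed with edgeR 4.0.16 in R 4.3.3 (filterByExpr, TMM scaling, robust quasi-likelihood fit of all 12 libraries, Benjamini-Hochberg adjustment over 12671 genes, threshold 0.05). The filter took out 2884 genes. CPM were computed with the TMM-scaled library sizes. The scripts were tested on simulated data. Alternatives were DESeq2 1.42.0, limma 3.58.1 voom, DESeq2 size factors, total-count scaling, no filter, a filter of 5 CPM in 3 libraries, no robust estimation, a replicate block, a fit of the compared pair of genotypes only, and omission of each library in turn. Replicates differed by more than counting noise in a chi-square test of their counts, so none was merged. Genes were named by a rule: Cbl and Cblb, and, among called genes whose groups did not overlap, the 15 largest fold changes in each direction, the 8 largest CPM differences in each direction, up to 4 genes of each list and the 5 most significant within 5 Mb of Cbl. The comparison, the lists and the genes were chosen with earlier results of these data known. Gene coordinates are GENCODE GRCm38, and promoters are RefSeq GRCm38.p6. Intervals on ratios of counts are exact and cover counting error only. Marker lists were taken from general knowledge of the cell types. A few single-gene results are not reported here.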

Additional observations from a re-analysis of the deposited data

Results flagged for a closer look

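The effect of losing Cbl was measured in 2 separate sets of libraries, Cbl-/- against WT and labelled DKO against labelled Cbl-b-/-. A test of the difference between the 2 effects, in edgeR's quasi-likelihood fit, called 1985 genes (15.7% of all tested). Of the 48 genes named for the size of their change or as the target 36 were among them. The first effect enters this difference with its sign reversed, and it also served to choose most of these genes. The count of 36 is therefore not independent of the choice. The values are the second log2 fold change minus the first. Among genes that rose in Cbl-/-, the difference was -7.09 for C5ar2, -4.62 for Nxpe1-ps, -3.95 for C5ar1, -3.39 for Fam162a, -3.33 for Fkbp9, -3.24 for Pira2 and -2.84 for Uchl1. It was -2.56 for Neo1, -2.19 for Cd40, -2.14 for Igf2bp3, -2.04 for Nectin1, -1.98 for Gt(ROSA)26Sor and -1.59 for Eps8. It was -1.21 for Serinc3, -0.73 for Hmga1, -0.27 for Hspa8 and 0.49 for Ccl9.

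Among genes that fell in Cbl-/-, the difference was -0.44 for Cbl itself, 0.38 for Pkm, 0.52 for Ctsb, 0.56 for Ctsd, 0.70 for Plau and 1.19 for Apobec1. It was 1.88 for Spp1, 2.25 for Cables1, 2.25 for Abhd1, 2.47 for Sbk2, 2.75 for Atp10d, 3.37 for Bcl2a1d and 3.65 for Cers4. The largest were 4.44 for Plbd1, 5.24 for Stard13, 6.01 for Ifi44, 7.38 for Hmga1b, 7.54 for Elavl4 and 9.69 for Ifi44l. Hmga1, Hmga1b and Bcl2a1d have near-identical copies and are uncertain. The cause of these differences was not tested.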

How the results depend on the processing

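The count of 1251 genes moved most with the libraries in the fit, which also changed the genes tested, the scaling and the estimate of spread. With only WT and Cbl-/- in the fit 2753 genes were called, 1484 higher and 1269 lower. Leaving out 1 WT or Cbl-/- library gave 733 to 978 genes, 415 to 567 higher and 318 to 411 lower. Alternatives chosen after seeing the data left out the other libraries: without DKO 3 the count was 2206 (1215 higher, 991 lower), and without any of the other 5 it was 1180 to 1395. Against labelled Cbl-b-/- the count of 934 was 1712 with that pair alone and 533 to 737 on leaving out 1 library. For labelled DKO against labelled Cbl-b-/- 4211 became 2760 with that pair alone and 3493 to 4543 on leaving out 1 library. The count of differences between the 2 effects, 1985, was 1448 to 2780 on leaving out 1 library. The causes were not tested. DESeq2 gave 1543 genes for Cbl-/- against WT and limma voom 1240, and scaling by total counts gave 803 higher and 448 lower. That scaling moved the median over all genes of the difference between the 2 effects from 0.0037 to -0.106 on the log2 scale. The replicate block gave 1139, but same-numbered WT and Cbl-/- libraries did not deviate together (r = -0.007391, 0.03812 and -0.02905), so the numbers were not taken as pairs. Of the 1251 genes 600 (48.0%) were called in each of the up to 15 other settings in which they were tested and none changed sign, and so were 159 of 208 named genes. The lowest depth was 23892790 counts, and how depth limits the calls was not tested.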
